A study of Mus musculus with 40 samples.

Results

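Rif1 was depleted in mouse embryos by injecting a small interfering RNA (siRNA) into zygotes, and single embryos were sequenced at the 8-cell stage. All 12 embryos labelled as receiving siRif1 and all 8 labelled as receiving the control siRNA (siCon) at this stage were compared across all genes, 20 of the 40 embryos in the series. The other 20 embryos, 13 siRif1 and 7 siCon, were collected at the 4-cell stage and are used here only for values set side by side. Zygotes were injected between 17 and 18 h after hCG, the hormone that triggers ovulation, with siRNA at 20 µM, and were cultured in KSOM medium until collection at 70 h (8-cell) or 63 h (4-cell). Both groups were injected and cultured in the same way by the labels, which separate them by the siRNA. The knockdown rests on 1 siRNA, so its own off-target effects and those of losing Rif1 cannot be told apart. The cross is (C57BL/6J x CBA) with a DBA parent, whose substrain number rises by 1 from each sample to the next in the labels, which may be an error of entry, so the substrain is not stated here. Cumulus cells were removed with hyaluronidase. Litters and injection days are not in the labels, and the p-values therefore measure the spread between these embryos.

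Rif1 is a large chromatin-bound protein that sets the time at which regions of the genome replicate. It carries protein phosphatase 1 (PP1) to chromatin, where the phosphatase opposes the Cdc7-Dbf4 kinase that fires licensed replication origins. It also acts with 53BP1 to protect the ends of DNA double-strand breaks from resection, and in mouse embryonic stem cells it takes part in silencing retroelements and the Zscan4 genes of the 2-cell-like state.

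At the 8-cell stage, 1 gene passed the threshold of the comparison across all genes, Dpf3, which encodes a histone-reading subunit of the BAF chromatin remodelling complex and was higher in siRif1 embryos. Rif1 itself had a lower mean level in siRif1 embryos and a wide range, with 1 embryo above every control. Among the lists of genes examined for replication, DNA repair, lineage and chromatin, no member other than Dpf3 passed the threshold. Levels are given as CPM, the count of a gene per 1000000 mouse counts, scaled by TMM, a normalization that sets the bulk of genes equal between embryos. A gene is called where its p-value from edgeR's quasi-likelihood test, adjusted over the 11844 genes tested by the Benjamini-Hochberg method, was below 0.05.

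The libraries held 2140880 to 4240507 counts on mouse genes in siCon embryos and 1479657 to 4417902 in siRif1 embryos. Libraries that stood apart were those of siRif1 embryos 6, 7, 9 and 11. A single ribosomal RNA entry took 56.1% of the mouse counts in embryo 6, 43.5% in embryo 11 and 38.2% in embryo 9, against 11.5 to 34.7% in siCon embryos. Embryo 7 had the fewest counts and the fewest detected genes, 14152. None of 10 library measures differed between the groups (exact permutation test, smallest adjusted p = 0.89). Of 9 markers of 8-cell blastomeres, 8 were detected in all 20 embryos, Dppa3 at 1435 to 3431 CPM among them, and Lgals1 was detected in 6 of 8 siCon and 9 of 12 siRif1 embryos. Their summed level was 4702 to 6342 CPM in siCon and 3640 to 6767 CPM in siRif1 embryos. The summed level of 14 cumulus and granulosa markers was 1.26 to 7.93 CPM in siCon and 1.31 to 18.1 CPM in siRif1 embryos. Of these markers 6 were at 0 in every 8-cell embryo, Ptx3, Ptgs2, Foxl2 and Fshr among them. Others were detected in siRif1 embryos and in 0 siCon embryos. These were Has2, Amh, Lhcgr and Cyp11a1 in 1 siRif1 embryo each, Tnfaip6 in 2 (up to 9.07 CPM) and Cyp19a1 in 3. Star was detected in all 20 embryos, and Col1a1 in 5 siCon and 4 siRif1 embryos. The embryos were of both sexes in both groups, with Y-linked transcripts in 4 of 8 siCon and 5 of 12 siRif1 embryos.

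The siRNA's target came first as a check of the labels. Rif1 lay at 262 CPM in the lowest siCon embryo, 302 in the median and 382 in the highest. In siRif1 embryos it lay at 94.6 CPM in the lowest, 220 in the median and 410 in the highest. The groups thus overlapped: 9 of 12 siRif1 embryos were below every siCon embryo, embryos 1 and 7 (298 and 336 CPM) were inside the control range, and embryo 11 was above it. The mean fell from 314 to 220 CPM, 70.0% of the control mean. On mean log2 CPM the difference was -0.62 (two-sided exact permutation test, p = 0.0099). In edgeR's fit across all genes the log2 fold change was -0.52 with a standard error (SE) of 0.24, p = 0.035 before and 0.999 after adjustment, and its 95% interval ran from 0.503 to 0.974 times the control level. At the 4-cell stage the log2 fold change was -1.26, and the difference between stages was 0.75 (edgeR interaction, p = 0.034, adjusted p above the threshold). Scaling by ERCC spike-in totals, where ERCC denotes synthetic RNAs added in the lysis buffer, gave a log2 fold change of -0.41 (edgeR, unadjusted p = 0.28).

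**Figure D1:**
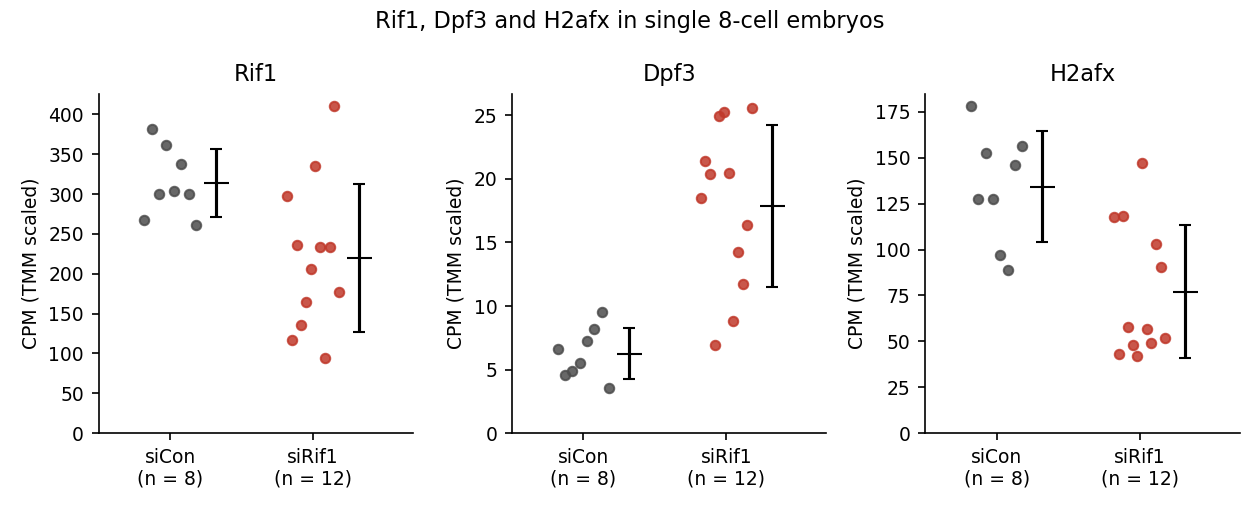
CPM of Rif1, Dpf3 and H2afx in each 8-cell embryo (points, in order of replicate number; 8 siCon in grey, 12 siRif1 in red), with the mean and SD as a bar beside each group. Rif1 spans 94.6 to 410 CPM among siRif1 embryos, whereas 10 of 12 siRif1 embryos exceed every control for Dpf3.

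Dpf3 was the only gene called at the 8-cell stage, 1 of 11844 or 0.00844%. Its product belongs to the d4 family, whose paired PHD fingers bind modified histone H3 tails. The start of the gene is shown to place the transcript, since it alone passed the test. The 300 bases run from 250 before to 50 after the annotated start on chromosome 12 (RefSeq, GRCm38.p6, chr12:83487687-83487986, minus strand), with matches to CCAAT and to the GC box GGGCGG, on either strand, in capitals:
Dpf3: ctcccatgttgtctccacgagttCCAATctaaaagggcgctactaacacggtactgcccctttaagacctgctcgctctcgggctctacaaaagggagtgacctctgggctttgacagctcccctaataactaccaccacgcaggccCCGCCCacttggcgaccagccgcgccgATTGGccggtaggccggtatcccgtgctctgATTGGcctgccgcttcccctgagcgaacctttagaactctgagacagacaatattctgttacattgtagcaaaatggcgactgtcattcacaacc
The letters CCAAT matched 3 times, at least once in 37.4% and at least 2 times in 11.7% of all 32851 promoters of this length. GGGCGG matched 1 time and is held by 35.7% of promoters, and TATAAA, held by 13.6%, has no match in this window. The window's GC content is 55.3% against a median of 52.7% over all promoters, and it holds 17 CpG sites against a median of 7. No motif overlapped another, and a match is a description of letters, not of binding.

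Dpf3 lay between 3.56 and 9.51 CPM in siCon embryos, with a median of 6.07, and between 6.92 and 25.6 CPM in siRif1 embryos, with a median of 19.4. Of the 12 siRif1 embryos, 10 were above every control, and embryos 4 and 8 (6.92 and 8.79 CPM) were within the control range. Embryo 11, with the highest Rif1, had 16.4 CPM of Dpf3. The mean rose from 6.26 to 17.9 CPM. In edgeR its log2 fold change was 1.50 (SE 0.29, adjusted p = 0.047), and with ERCC totals the estimate was 1.56. The estimate stayed between 1.42 and 1.62 when each embryo was left out in turn, and its adjusted p ranged from 0.012 to 0.24. The call held in 6 of these 20 fits, those without siCon embryo 6 or 7 or without siRif1 embryo 4, 8, 9 or 10, and was lost in the fits without any of the others. With ERCC totals, no gene was called, and with the 8-cell embryos fitted alone Dpf3 had an adjusted p of 0.0596 in edgeR. At the 4-cell stage its log2 fold change was 0.71 (edgeR, unadjusted p = 0.016).

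Over all genes, 349 had an unadjusted edgeR p below 0.05, which is 2.95% of the 11844 tested, and 592.2 would be expected by chance were no gene to differ and were p-values uniform. Of these, 201 (1.7%) were higher and 148 (1.25%) lower in siRif1 embryos. With ERCC totals the count was 149 (1.26%) with 0 called. DESeq2 called 1 gene, again Dpf3, with 430 (3.63%) at an unadjusted p below 0.05, and limma-voom called 0 with 704 (5.94%). The 8-cell embryos fitted alone gave 0 calls and 483 of 9807 genes (4.93%) at that level. The precision of the estimates is part of this result. For 7036 genes (59.4%) the 95% interval lay within 2-fold either way of the control, and among the 7359 genes whose mean log2 CPM was 3 or more this held for 6401 (87%). The median SE was 0.32 over all genes and 0.24 over the better expressed ones. Among the latter, 0 genes had every siRif1 embryo above every control and 0 had every one below; at least 9 of 12 were above in 12 genes (0.163%) and below in 10 (0.136%).

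**Figure D2:**
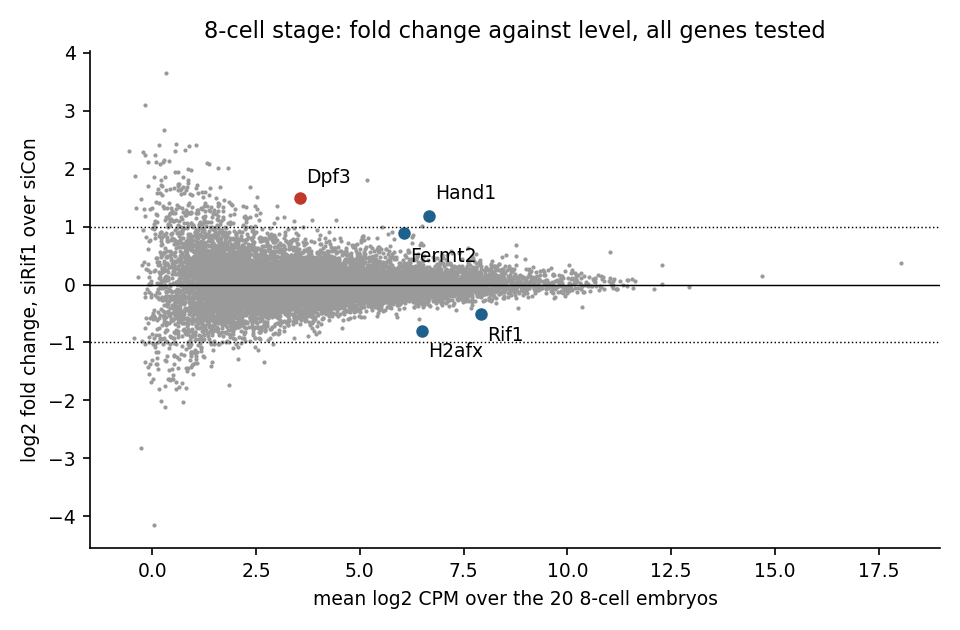
Log2 fold change of siRif1 over siCon at the 8-cell stage against the mean log2 CPM of the 20 embryos, 1 point per gene tested (11844). Dotted lines mark 2-fold either way; Dpf3 (red) is the called gene, and Rif1, Fermt2, H2afx and Hand1 (blue) are named in the text and did not pass the threshold.

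The genes with the smallest p-values after Dpf3 are described by their values, since the smallest adjusted p among them was 0.999 in edgeR's fit of all 40 libraries. With the 8-cell embryos fitted alone, Fermt2 had an adjusted p of 0.088 in edgeR, beside 0.0596 for Dpf3. In limma-voom, Cyb5b, Sesn2, Fermt2 and Dpf3 each had an adjusted p of 0.13, and the unadjusted p of Dpf3 was the largest of these. Fermt2, which encodes kindlin-2, an activator of integrins, lay at 26.1 to 65.3 CPM in siCon embryos (median 47.1) and 52.4 to 111 CPM in siRif1 embryos (median 92.7). All siRif1 embryos but embryo 4 were above every control, and the log2 fold change was 0.90 (SE 0.27). Cyb5b, a cytochrome b5 of the outer mitochondrial membrane, lay at 18.0 to 60.3 CPM (median 36.4) against 56.3 to 97.5 CPM (median 65.0), with 9 of 12 siRif1 embryos above every control and a log2 fold change of 0.90 (SE 0.23). Both genes overlapped between groups only at the lower end of the siRif1 embryos.

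Fasn, the fatty acid synthase, ranged from 48.7 to 98.9 CPM in siCon and 55.8 to 194 CPM in siRif1 embryos, 8 of which were above every control. Hk1, a hexokinase of the first step of glycolysis, ranged from 41.7 to 81.7 CPM and from 53.4 to 163 CPM, with 5 above. Their log2 fold changes were 0.71 and 0.72. Rab3il1, an exchange factor for Rab GTPases of vesicle traffic, had a smaller estimate of 0.53 (SE 0.15) and 9 of 12 siRif1 embryos above every control, at 188 to 365 CPM against 135 to 231 CPM.

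Sesn2, a p53 target that senses leucine upstream of mTORC1, lay at 19.9 to 91.5 CPM in siCon and 47.1 to 100.1 CPM in siRif1 embryos, so that the groups overlapped over most of their range. Its log2 fold change was 0.78, and 1.04 without siCon embryo 6, the one fit in which it was called (edgeR adjusted p = 0.036). Nek2, a kinase of centrosome separation, had an estimate of 0.64, Rnf24, a RING finger membrane protein, one of 1.12, and Ube2u, a ubiquitin-conjugating enzyme, one of 1.35. The annotated spans of Nek2, Rnf24, Ube2u and Hk1, introns included, overlap a gene on the opposite strand. The reads carry no strand, and whether such an overlap affected the counts was not tested.

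Of the 10 genes of smallest p with lower estimates, Abhd13, an alpha/beta hydrolase-fold protein, had the most siRif1 embryos below every control. It lay at 21.7 to 43.6 CPM in siCon (median 33.4) and 13.0 to 29.8 CPM in siRif1 embryos (median 18.1). Of the siRif1 embryos 10 of 12 were below all controls, and the log2 fold change was -0.75 (SE 0.22). Dazap2 had 8 of 12 below and an estimate of -0.59; it lay at 93.0 to 171 CPM in siCon and 31.5 to 131 CPM in siRif1 embryos. The peroxisomal thioesterase Acot8 (-0.71), the ESCRT-I subunit Mvb12a (-0.79) and the peroxiredoxin Prdx5 (-0.56) had between 4 and 7 siRif1 embryos below every control. So did the NF-kappaB inhibitor-interacting Ras-like protein Nkiras2 (-0.56), the cargo chaperone Unc119b (-0.44) and the microtubule adaptor Hook2 (-0.63). Acot8, Prdx5 and Nkiras2 also overlap genes on the opposite strand.

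**Figure D3:**
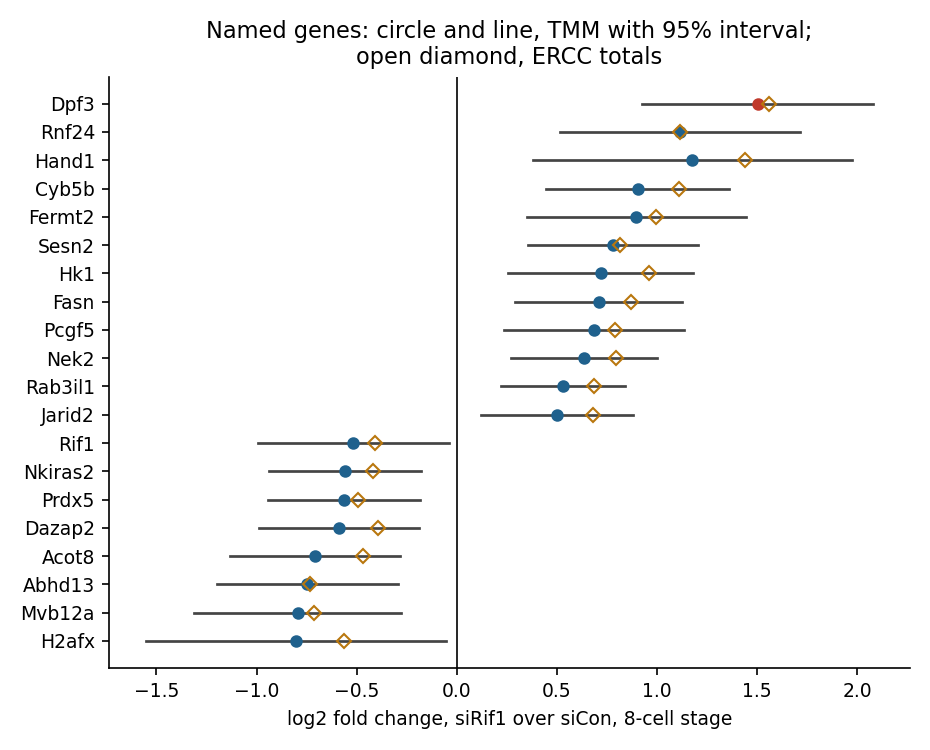
Log2 fold change of siRif1 over siCon at the 8-cell stage for 20 genes named in the text (circles, red where called) with the 95% interval from edgeR under TMM scaling (lines), and the estimate with ERCC totals (open diamonds). Every estimate keeps its sign with ERCC totals, as for Dpf3 (1.50 and 1.56) and Rif1 (-0.52 and -0.41).

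Rif1 works with PP1, 53BP1 and their cofactors, and no transcript of these partners passed the test. Of 15 genes tested in this list, Rif1 included, none was called, 5 were above 0 and 10 below, and the median log2 fold change was -0.04 against 0.00 over all genes. Over all 11844 genes tested, 5986 (50.5%) were above 0, the share to set beside such counts here and in the lists below. The PP1 catalytic subunits Ppp1ca, Ppp1cb and Ppp1cc had estimates of 0.06, -0.27 and -0.03. Trp53bp1, which encodes 53BP1, had 32.7 ± 12.1 CPM (SD, n = 8) in siCon and 39.4 ± 11.9 CPM (SD, n = 12) in siRif1 embryos, an estimate of 0.27. Rnf168, the ubiquitin ligase that marks chromatin for 53BP1, had the highest estimate of the list, 0.39 (edgeR, unadjusted p = 0.036), and Nudt16l1, whose product binds 53BP1 and holds it off chromatin, the lowest, -0.77.

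For DNA replication the intervals were narrow. Origin licensing genes had 0 of 19 called, 9 above 0 and 10 below, and all 19 intervals lay within 2-fold. Their median was -0.01 with TMM and 0.14 with ERCC totals, where the medians over all genes were 0.00 and 0.07. Mcm2, a helicase subunit, had 178 CPM in siCon and 172 CPM in siRif1 embryos, and the licensing factor Cdt1 had 362 and 359 CPM. Origin firing genes had 0 of 18 called, 9 above 0 and 9 below, a median of 0.00, and 16 intervals within 2-fold. Cdc7 had an estimate of 0.05 and Dbf4 one of -0.06. Replication fork and nucleotide supply genes had 0 of 29 called, 28 intervals within 2-fold, and a median of -0.04 with TMM and 0.07 with ERCC totals. Differences smaller than these intervals were not detectable at this depth and number of embryos.

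Genes of the DNA damage response were likewise uncalled. The checkpoint list had 0 of 19 called, 10 above 0 and 9 below, with a median of 0.01. Its members Chek1 and Atm had estimates of 0.01 and -0.04. Double-strand break repair had 0 of 37 called and a median of -0.01, with Brca1 at -0.07. Of p53 targets 0 of 31 were called, 22 were above 0 and the median was 0.15, which ran from 0.07 (without siCon embryo 7) to 0.25 (without siCon embryo 3). Cdkn1a, the p21 inhibitor of the cell cycle, had an estimate of -0.09 and Mdm2, the ubiquitin ligase of p53, one of 0.18.

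H2afx encodes the histone variant H2AX, whose phosphorylation marks DNA breaks, and it had the largest negative estimate of the checkpoint list. It lay at 88.7 CPM in the lowest siCon embryo, 137 in the median and 178 in the highest, and at 42.1, 57.3 and 147 CPM in the lowest, median and highest siRif1 embryo. The siRif1 embryos split between 7 below every control and 5 within the control range, which were embryos 1, 3, 7, 10 and 11 (118, 118, 147, 103 and 90.3 CPM). Embryos 1, 3, 7 and 10 also had more mouse counts per ERCC count (70.0 to 85.5) than any control (at most 63.8). Embryo 11 did not (38.1), and embryo 2, with H2afx below every control, did (90.5). A link between H2afx and this ratio was not tested. The log2 fold change was -0.80 with SE 0.37 (edgeR, p = 0.037 before and 0.999 after adjustment), and -0.56 with ERCC totals. Across the 12 siRif1 embryos its level followed that of Rif1 with Pearson's r = 0.74 (permutation p = 0.0072, adjusted 0.15 over 21 genes) and Spearman's rho = 0.74 (permutation p = 0.0077, adjusted 0.16). Without the 2 embryos farthest from the median of Rif1, r was 0.69, and in the 8 siCon embryos it was -0.53. The relation failed the adjustment, H2afx was added to the 21 genes after its values were seen, and its annotated span overlaps a gene on the opposite strand. Dpf3 had r = 0.10 with Rif1 across the same 12 embryos. Abhd13, lower in siRif1 embryos as a group, had r = -0.61 (permutation p = 0.034, adjusted 0.35), so it was higher where Rif1 was lower. Dazap2, also lower as a group, had a Spearman's rho of 0.65 (permutation p = 0.027, adjusted 0.26).

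The BAF complex moves nucleosomes with the ATPases Smarca4 or Smarca2, and Dpf3 was its single called gene among 27 tested. The list's median was -0.07, with 12 estimates above 0 and 15 below. Smarca4 had 304 ± 45.1 CPM (SD, n = 8) in siCon and 287 ± 80.9 CPM (SD, n = 12) in siRif1 embryos. Dpf2, the paralogue of Dpf3, had 169 CPM and 217 CPM, an estimate of 0.37 (edgeR, unadjusted p = 0.036). Smarca2 lay at 0.82 to 7.12 CPM in siCon and 2.53 to 16.3 CPM in siRif1 embryos, 7 of which were above every control, with an estimate of 1.17 (SE 0.48); it too overlaps a gene on the opposite strand. Of other subunits, Arid1a had an estimate of 0.07, Smarcc1 0.14 and Smarcb1 -0.06, and the lowest in the list was Ss18l1 at -0.74.

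Chromatin silencing was examined next, given the role of Rif1 in repressing retroelements in stem cells. Of 26 tested genes of H3K9 methylation and retroelement silencing none was called. Their median was -0.03 under TMM and 0.10 under ERCC scaling, which put the median over all genes at 0.07. Setdb1 and Ehmt2, both H3K9 methyltransferases, had estimates of 0.25 and 0.18, and Trim28, the corepressor that recruits Setdb1, one of -0.05. Smchd1, required for gene silencing on the inactive X chromosome, had 30.9 CPM in siCon and 46.2 CPM in siRif1 embryos, 7 of which were above every control. In the Polycomb list 0 of 31 were called, 20 were above 0, and the median was 0.10, or 0.05 without siRif1 embryo 12. Its members with an unadjusted edgeR p below 0.05 were the PRC1 subunit Pcgf5 (0.69), the PRC2 cofactor Jarid2 (0.50) and the ubiquitin ligase Rnf2 (0.40), whereas Ezh2, the methyltransferase, had 0.11 and Suz12 had -0.24. DNA methylation genes had 0 of 16 called, with Dnmt1 at -0.01 and Dnmt3b at 0.61. Smchd1, Pcgf5, Jarid2 and Dnmt3b overlap a gene on the opposite strand.

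Of the genes of the 2-cell list, which holds the Zscan4 genes that Rif1 helps to silence in stem cells, none passed the test. Of 28 found in the files 18 were tested, 0 were called, 13 had estimates below 0, and the median was -0.21. With 1 embryo left out the median ran from -0.44 (without siRif1 embryo 1) to -0.05 (without siCon embryo 6). The levels within the list differed widely. The transcription factor Tbx3 lay at 428 to 1057 CPM over the 20 embryos and was detected in all of them. Zscan4d was detected in 4 of 8 siCon and 6 of 12 siRif1 embryos, with a median of 0.50 and a highest value of 6.60 CPM in siCon and 0.12 and 1.96 CPM in siRif1 embryos. Zfp352, another 2-cell gene, had medians of 0.46 and 0.13 CPM, and its highest siCon value, 17.9 CPM, was in siCon embryo 5, as was that of Zscan4d. The interval lay within 2-fold for only 2 of these 18 genes, so changes of that size were not detectable. Maternal oocyte transcripts had 0 of 49 called and a median of 0.10, which ran from 0.04 (without siCon embryo 7) to 0.18 (without siCon embryo 1).

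Lineage genes were compared because mouse embryos compact during the 8-cell stage, ahead of the split into trophectoderm and inner cell mass. Trophectoderm and compaction genes had 0 of 45 called and 34 above 0 (75.6%, against 50.5% of all genes tested). Their median was 0.16 with TMM. With ERCC totals it was 0.24, which is 0.17 above the median of 0.07 over all genes. Hand1, a transcription factor needed later for trophoblast giant cells, lay at 10.8 to 172 CPM in siCon (median 68.7) and 46.5 to 325 CPM in siRif1 embryos (median 163). In 6 of 12 siRif1 embryos it was above every control, the highest control was siCon embryo 8, and the estimate was 1.18 (SE 0.39). Tead4 had an estimate of 0.29, the epithelial cadherin Cdh1 one of 0.25 and Tfap2c one of 0.00. Pluripotency genes had 0 of 26 called and a median of 0.04, with Pou5f1, which encodes Oct4, at -0.07, and Nanog at 0.41 with a wide interval from -0.78 to 1.60.

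In 2 large lists of highly expressed genes most estimates lay slightly below 0. Nuclear oxidative phosphorylation genes had 64 of 75 below 0 and 0 called, with a median of -0.11 under TMM and -0.02 under ERCC scaling. Cytosolic ribosomal protein genes had 64 of 81 below 0 and 0 called, with a median of -0.05 under TMM and 0.03 under ERCC scaling. Over all 11844 genes tested, 5858 estimates were below 0 under TMM. ERCC scaling put the median of all genes at 0.07. Relative to that, the medians of the 2 lists were -0.09 and -0.04, close to their TMM values. Every interval of both lists lay within 2-fold. Genes of such lists may vary together between embryos, so their counts are not independent evidence. The other lists had 0 called members. Cohesin and condensin genes, which hold and compact chromosomes, had 18 of 22 estimates above 0 and a median of 0.06, or 0.02 without siRif1 embryo 12, and the condensin subunit Ncapd2 was the lowest at -0.59. Mitosis and spindle genes had 17 of 34 above 0, telomere genes 7 of 16, and imprinted genes 13 of 27. Genes of the nucleolus and ribosome biogenesis had 20 of 38 above 0 with all 38 intervals within 2-fold, and Polr1b, a subunit of RNA polymerase I, was the highest at 0.42. Heat shock and unfolded protein response genes had 20 of 31 above 0, with the chaperone Hsph1 at 71.6 CPM in siCon and 101 CPM in siRif1 embryos.

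Over all lists, 783 distinct genes were tested, of which 19 were higher and 6 lower at an unadjusted p below 0.05, or 3.19% against 2.95% of all genes. The medians of the 31 lists with at least 5 tested members spanned -0.21 to 0.26.

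Total mouse RNA per embryo was compared through the spike-ins, by dividing each embryo's counts on mouse genes by its ERCC counts. It lay between 32.3 and 63.8 in siCon embryos, with a median of 54.8, and between 33.3 and 90.5 in siRif1 embryos. The siRif1 embryos 1, 2, 3, 7 and 10 lay at 70.0 to 90.5, above every control, and the other 7 lay at 33.3 to 50.2. The mean log2 ratio was higher by 0.07 in siRif1 embryos, a ratio of 1.05 (two-sided exact permutation test, p = 0.72), which is below the SD of 0.32 in siCon and 0.52 in siRif1 embryos. Whole embryos were lysed, so fewer cells and less RNA per cell cannot be told apart in this ratio. The sign turned when medians were compared, when the ribosomal RNA entry was left out, and without siCon embryo 8. ERCC totals shifted the median log2 fold change of all genes from 0.00 to 0.07 and raised the median SE of the better expressed genes from 0.24 to 0.37.

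**Figure D4:**
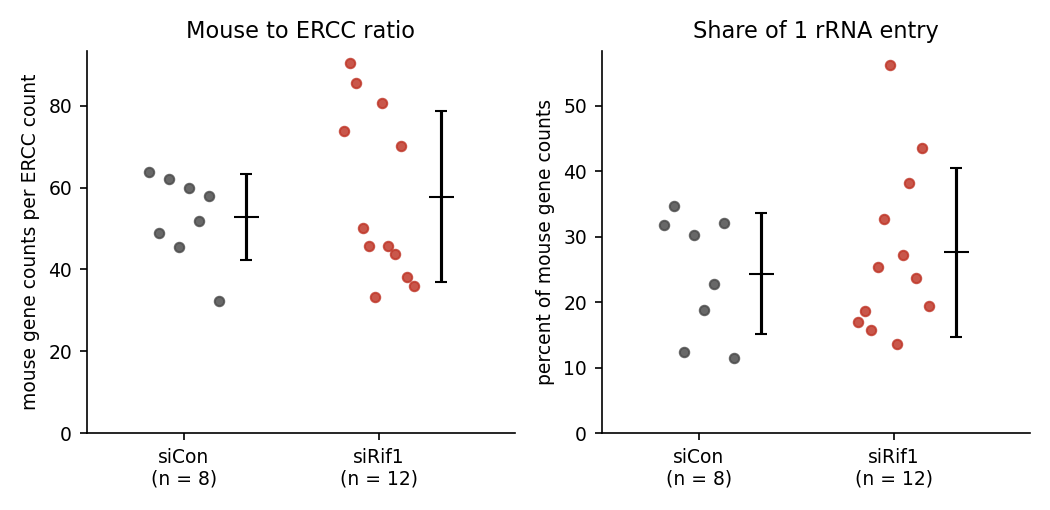
Left, mouse gene counts per ERCC count in each 8-cell embryo; right, percent of mouse gene counts on the ribosomal RNA entry (points, in order of replicate number; 8 siCon in grey, 12 siRif1 in red; bars, mean and SD). The siRif1 ratios lie at 70.0 to 90.5 in 5 embryos and 33.3 to 50.2 in 7; the highest ribosomal share, 56.1%, is siRif1 embryo 6.

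The 8-cell values of the genes called at the 4-cell stage were then set beside their 4-cell values. At the 4-cell stage 67 genes were called (0.566%), 15 higher (0.127%) and 52 lower (0.439%), with median log2 fold changes of 1.68 and -1.86. In siCon 4-cell embryos 3 and 7 the 52 lower genes had a median level of 93.0 and 128 CPM, against 12.6 to 21.6 CPM in the other 5 controls, and without those embryos 1 gene was called. At the 8-cell stage 13 of the 15 had estimates above 0, with a median of 0.33, and 22 of the 52 had estimates below 0, with a median of 0.05. The 8-cell 95% interval reached the 4-cell value for 2 of the 67 genes. That value was taken without its own SE, and the genes were chosen by their 4-cell values. This count and the medians therefore do not measure a difference between the stages.

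Of these 67 genes, the siRNA's target Rif1 included, 7 had an unadjusted edgeR p below 0.05 at the 8-cell stage. Over all genes tested, 349 of 11844 (2.95%) did. Of the 7, 6 were in the 4-cell direction. They were Rif1, H2afx (-0.80, and -1.70 at the 4-cell stage), Jarid2 (0.50 and 0.86), Syde2 (0.97 and 2.27), Cmtm7 (0.57 and 1.41) and Zkscan1 (-0.65 and -1.21). The gene with the other sign was Smarca2, at 1.17 against -2.02. Its difference between stages was 3.19 (edgeR interaction, unadjusted p = 1.5e-05), and without siCon 4-cell embryos 3 and 7 its 4-cell estimate was -0.76. Scd3, a stearoyl-CoA desaturase with the largest 4-cell estimate of -4.30, had 4.97 CPM in siCon and 5.03 CPM in siRif1 embryos at the 8-cell stage. The oocyte growth factor Bmp15, at -2.72, had 5.18 and 5.79 CPM. Without siCon 4-cell embryos 3 and 7 the 4-cell estimates of Scd3 and Bmp15 were -1.13 and -0.92, whereas that of Rif1 was -1.35 and that of H2afx -1.74. The interaction had an unadjusted p below 0.05 for 58 of the 67, a count inflated because the genes were chosen by their 4-cell values. Over all genes it was called for 0, with a smallest adjusted p of 0.18 in edgeR and 734 genes (6.2%) at an unadjusted p below 0.05.

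**Figure D5:**
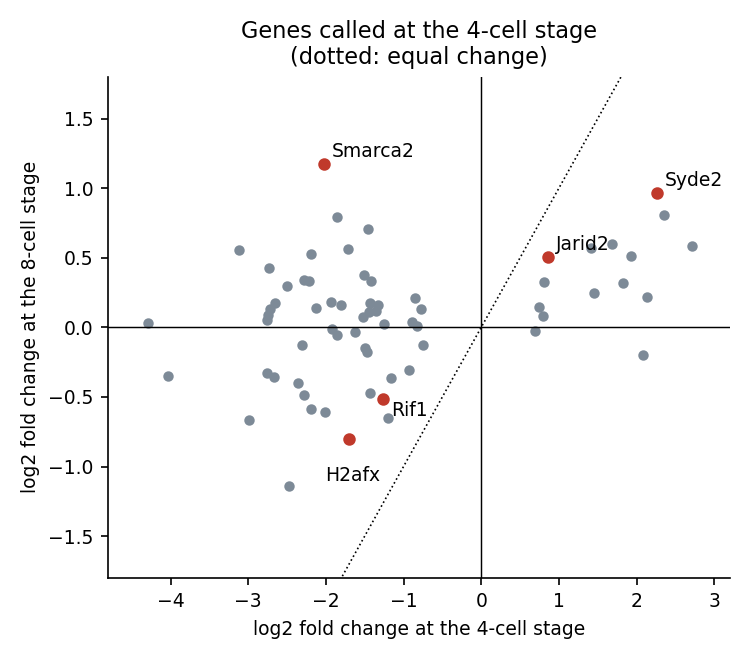
Log2 fold change of siRif1 over siCon at the 8-cell stage against that at the 4-cell stage for the 67 genes called at the 4-cell stage (points); genes named in the text are in red, and the dotted line marks equal change. The 8-cell estimates have medians of 0.33 (15 genes higher at the 4-cell stage) and 0.05 (52 lower), against 1.68 and -1.86 at the 4-cell stage. The genes were chosen by their 4-cell values, so the stages are not compared on equal terms.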

How the data were processed

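Single embryos were sequenced without strand information, and the deposited gene counts were used unchanged, from the unstranded column. The authors aligned reads with STAR 2.7.6a to GRCm38, per the submitters' processing notes. Which annotation they counted on is not stated there. Names for 55227 of 55487 gene entries came from GENCODE M21. The 92 ERCC entries and 4 summary entries were left out of library sizes. edgeR 4.0.16 (R 4.3.3) fitted all 40 libraries, 1 coefficient per group, after a minimum count of 10 in filterByExpr, with TMM or ERCC totals; DESeq2 1.42.0, with its own size factors, and limma-voom 3.58.1, with sample quality weights, were alternatives that change the scaling or weighting along with the test. Single values were tested with exact permutation tests (scipy 1.17.1), and the code was tested on simulated counts. Depth was 1479657 to 4417902 counts per 8-cell library. Named genes were the called ones, the 10 of smallest p in each direction whose mean log2 CPM was 3 or more, list members of smallest p, the leading genes with ERCC totals or at the 4-cell stage, and for H2afx, Rnf2, Dpf2, Cmtm7, Syde2, Zkscan1 and background members of lists, genes picked after their values were seen. The members and lists were chosen with earlier results of these data known.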

Additional observations from a re-analysis of the deposited data

Results flagged for a closer look

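Among 29 library measures and genes checked in the 8 siCon 8-cell embryos, 1 value lay far from the rest of its group. Dazap2 was at 171 CPM in siCon embryo 3, against 93.0 in the lowest and 106 in the median siCon embryo. Such a gap is found by chance in about 1 in 20 groups. With 29 checked, 1 such value is no more than chance alone would give.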

How the results depend on the processing

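The count of 1 called gene at the 8-cell stage became 0 with ERCC totals, with no filter on low counts, with limma-voom, with the 8-cell libraries fitted alone under TMM or ERCC totals, without siRif1 embryos 6 and 7, with the ribosomal RNA share as a covariate and with the replicate number as a block. It ranged from 0 to 2 when each embryo was left out in turn. Dpf3 kept its direction throughout, and the cause of its lost calls was not tested. Same-numbered siCon and siRif1 embryos did not deviate together (r from -0.30 to 0.24 over 8 pairs, 2 over 0.1), so they were not treated as pairs. Whether the numbers follow an order of handling within a group was not tested. The block left 0 genes called, with 279 at an unadjusted p below 0.05 in edgeR and Dpf3 at an adjusted p of 0.13. The log2 difference in the mouse to ERCC ratio, 0.07, turned to -0.19 for medians, -0.0055 without the ribosomal RNA entry and -0.023 without siCon embryo 8, and ranged from -0.023 to 0.14 over single embryos left out; the cause was not tested. Of 713 values of 23 genes, 690 kept their direction and side of the threshold, 22 of Dpf3 lost the call, 1 of Sesn2 gained it and 0 turned direction. Of 961 list medians, 16 moved beyond the spread of siCon embryos. The settings leaving out named embryos, the covariate, the 8-cell libraries with ERCC totals and the ratio without the ribosomal entry were added after the data were seen. Depth limits genes below a log2 CPM of 3 most: the median SE was 0.32 over all genes and 0.24 above that level.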

Other observations

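Sdc4, a syndecan proteoglycan of the cell surface, was picked out after its values were seen, for having the largest estimate among the genes whose mean log2 CPM was 3 or more. It had 25.5 ± 15.9 CPM (SD, n = 8) in siCon and 89.6 ± 85.7 CPM (SD, n = 12) in siRif1 embryos. In 7 of 12 siRif1 embryos it was above every control, and in 1 it was below every control. The log2 fold change was 1.81 with SE 0.77 (edgeR, p = 0.024 before and 0.999 after adjustment), and 3.06 at the 4-cell stage (edgeR adjusted p = 0.16), or 2.54 there without siCon 4-cell embryos 3 and 7.

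Interferon-stimulated genes had the highest median at the 8-cell stage among the 31 lists with at least 5 tested members, 0.26, from 7 tested genes of which 0 were called and 5 were above 0. The summed level of the 29 genes of the list was 75.2 to 120.1 CPM in siCon and 93.2 to 132 CPM in siRif1 embryos, so that the groups overlapped. Oasl2, an interferon-induced member of the oligoadenylate synthetase family, ranged from 0.50 to 18.8 CPM in siCon and from 0 to 36.2 CPM in siRif1 embryos.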
